A study of Mus musculus with 10 samples.

Results

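Oxidative phosphorylation is carried out in the inner mitochondrial membrane, where complexes I, III and IV pass electrons to oxygen and pump protons and complex V, the ATP synthase, uses the proton gradient to make ATP. Most subunits of these complexes are encoded in the nucleus, made in the cytosol and imported, and a few core subunits are encoded in mitochondrial DNA. In macrophages, inflammatory activation is known for a shift from mitochondrial respiration towards glycolysis, so the transcripts of the nuclear-encoded subunits were followed here. They were chosen by gene symbol alone: genes whose symbols begin with Ndufa, Ndufb, Ndufc, Ndufs or Ndufv (assembly factors left out) for complex I, Uqcr for complex III, Cox4 to Cox8 for complex IV and Atp5 for complex V. The rule found 82 genes among 22818 gene rows with a symbol: 41 of complex I, 8 of complex III, 16 of complex IV and 17 of complex V. A further 2 rows were transcribed pseudogenes and were left out. Cox8b and Cox8c and the subunits encoded in mitochondrial DNA were not analysed here, and complex II, which is wholly nuclear-encoded, was outside the rule and is given beside the members.

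Each library holds RNA from macrophages taken from the peritoneum of thioglycollate-injected C57BL/6 mice, 8 weeks old by their labels, and was sequenced as a bulk sample. The 5 control libraries are labelled as untreated in their sample characteristics, which were followed here, although the treatment protocol field of the labels names ox-LDL for every sample, controls included. Every fold change below rests on the characteristics. The 5 ox-LDL libraries came from cells primed with LPS (100 ng/ml), a bacterial cell wall product, and then given oxidized low-density lipoprotein (100 µg/ml) for 16 h, so the effects of LPS and ox-LDL cannot be told apart. Nothing in the labels says whether the libraries of a group came from separate mice, so p-values measure the spread between libraries, which may be technical. The estimated counts summed to between 19257131 and 20687289 per library.

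All 8 macrophage marker genes passed the filter on low counts, and their summed level was 19630 to 46769 CPM (counts scaled to a common library size) in the controls and 12146 to 47599 CPM in the ox-LDL libraries. Stromal and mesothelial markers, of which 2 of 4 tested were called higher, summed to 12.7 to 45.0 CPM and 72.3 to 117 CPM, and neutrophil markers to 6.76 to 16.0 CPM and 11.6 to 154 CPM, with 6 of the 9 neutrophil genes at or under 1 CPM in every library. Markers of B cells and of T cells summed to less than 3 CPM in every library, and those of eosinophils and mast cells to 2.52 to 8.19 CPM in the controls and 0.54 to 2.33 CPM in the ox-LDL libraries. In such bulk samples fewer cells of a type and less RNA per cell cannot be told apart, and the part of other cells in the results below was not tested.

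One library stood apart in gene length. In ox-LDL replicate 2 short transcripts were high and long ones low. Spearman's rho across genes was taken between gene length and the deviation from the mean of the library's own group. It was -0.66 in ox-LDL replicate 2, where ox-LDL replicates 1, 3, 4 and 5 gave 0.06 to 0.53. The ox-LDL mean includes replicate 2. Control replicates 1 and 4 leaned the same way (-0.59 and -0.48), and the other controls the opposite way (0.36 to 0.48). The subunit genes are short, with a median transcript length of 523 bases against 2484.5 bases for all genes tested. Of the members tested, 45 of 77 (58.4%) were under 600 bases, against 543 of 12654 genes (4.29%). The results for the complexes are therefore given over 10 libraries and without ox-LDL replicate 2, and also with each library's smooth trend of level on length taken off.

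In the cells studied the subunits were abundant transcripts. On the length-scaled FPKM scale, which allows genes to be compared, the control medians of the tested members ran from 20.3 to 696 in complex I (median 118), from 76.3 to 566 in complex III (median 205), from 5.77 to 724 in complex IV (median 373) and from 12.3 to 728 in complex V (median 323). By control median, the most abundant tested members within complexes I, III, IV and V were, in that order, Ndufa4 (510 to 846 FPKM in the controls), now regarded as a subunit of complex IV, Uqcrb (489 to 781), a small subunit of complex III, Cox8a (670 to 994), a small subunit of complex IV, and Atp5l (696 to 889), subunit g of the ATP synthase. The ranges of the leading members of complex IV overlapped: Cox7c reached 596 to 960, Cox6b1 672 to 894 and Cox4i1 634 to 967 FPKM. Within complex V, Atp5b, the catalytic beta subunit, stood at 330 to 457 FPKM. Atp5a1, the alpha subunit that sits beside it in equal number in the enzyme, stood at 10.6 to 14.5 FPKM. The counts of Atp5a1 were not whole in any library, so its reads could have been split in counting and its level is uncertain. Together the members took 0.953% to 1.25% of the counts of each control library, 0.705% to 0.809% of those of ox-LDL replicates 1, 3, 4 and 5, and 1.87% of those of ox-LDL replicate 2.

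The promoters are shown for 4 members whose fold changes are described below, because transcription factors that control respiratory genes as a set are known, among them NRF1, the ETS factor GABP and YY1. The sequences are the 250 bases before the start in the RefSeq promoter table of GRCm38.p6, 5′ to 3′ on the gene's strand, with capitals marking a searched motif. The positions are chr9:57520982-57521231, plus strand, for Cox5a, chr5:115348959-115349208, minus strand, for Cox6a1, chrX:20617620-20617869, minus strand, for Ndufb11, and chr10:80406822-80407071, minus strand, for Uqcr11.
Cox5a: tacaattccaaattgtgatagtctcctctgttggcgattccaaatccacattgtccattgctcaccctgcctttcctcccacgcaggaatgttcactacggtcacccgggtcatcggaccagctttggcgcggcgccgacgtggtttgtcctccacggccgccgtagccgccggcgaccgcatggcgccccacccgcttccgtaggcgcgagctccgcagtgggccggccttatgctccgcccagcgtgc
Cox6a1: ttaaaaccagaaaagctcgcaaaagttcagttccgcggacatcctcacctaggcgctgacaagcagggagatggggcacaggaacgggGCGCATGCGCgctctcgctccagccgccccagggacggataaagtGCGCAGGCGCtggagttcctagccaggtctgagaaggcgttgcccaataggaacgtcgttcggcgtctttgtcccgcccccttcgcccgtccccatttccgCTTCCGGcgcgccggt
Ndufb11: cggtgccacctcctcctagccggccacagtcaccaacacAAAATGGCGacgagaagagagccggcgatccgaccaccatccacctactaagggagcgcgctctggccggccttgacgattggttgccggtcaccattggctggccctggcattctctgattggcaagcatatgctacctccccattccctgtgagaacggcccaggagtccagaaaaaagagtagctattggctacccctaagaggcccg
Uqcr11: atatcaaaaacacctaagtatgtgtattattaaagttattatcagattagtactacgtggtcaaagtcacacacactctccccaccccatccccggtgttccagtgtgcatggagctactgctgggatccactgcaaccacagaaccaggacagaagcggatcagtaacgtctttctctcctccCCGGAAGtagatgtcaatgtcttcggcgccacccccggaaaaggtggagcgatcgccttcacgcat

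Cox6a1 holds 2 NRF1 letter runs and, on the opposite strand, an ETS run, Ndufb11 holds a YY1 run and Uqcr11 an ETS run, whereas Cox5a holds none of the motifs searched. Over 300 bases (250 before to 50 after the start, both strands) the table held 72 promoters of 67 member genes. The NRF1 palindrome, as in the first capitals of Cox6a1 but with any base at the sixth position, was in 16 of them (22.2%), against 4.60% of 32851 promoters in all. The ETS letters CCGGAAG were in 15 (20.8%, against 8.86%), the YY1 letters AANATGGCG in 10 (13.9%, against 2.38%) and the ERR letters TCAAGGTCA in 1 (1.39%, against 0.423%). The NRF1 palindrome was in 8 of 37 promoters of complex I, 1 of 5 of complex III, 1 of 12 of complex IV and 6 of 18 of complex V. These matches describe letters and not bound sites.

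Over all 10 libraries no subunit gene was called. Of the 77 members that passed the filter, 0 were higher and 0 lower in ox-LDL at an adjusted p below 0.01 in edgeR's quasi-likelihood test with Benjamini-Hochberg adjustment, where 9.40% of 12654 genes were called higher and 5.35% lower. The split over all genes was 1189 higher and 677 lower, and 555 and 750 by limma on log2(FPKM + 1). At an unadjusted p below 0.05 there were 4 members (3 by limma-voom), given without the share over all genes at that cutoff. DESeq2, which gave no p for 31 of the 77 members, called 1 higher (Cox5a) and 1 lower (Cox7a1), and limma-voom called 0. The fold changes were positive for 62 members and negative for 15, with a median log2 fold change of 0.27 against 0.10 over all genes tested, which became negative with library size alone (-0.13), limma-voom (-0.07) and limma on log2(FPKM + 1) (-0.29). By complex the medians were 0.23 (complex I, 39 genes), 0.31 (complex III, 8 genes), 0.34 (complex IV, 13 genes) and 0.24 (complex V, 17 genes). The members not tested were Ndufa4l2, Ndufb4b, Cox4i2, Cox6b2 and Cox7b2.

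The sign of these medians rested on ox-LDL replicate 2. It had the highest level of the 10 libraries for 70 of the 77 members, and its level was a median of 5.65 times that of the other ox-LDL libraries (0.72 to 9.23 times). Measured as log2 deviation from the control mean, the median member stood at 0.44, -0.19, -0.27, 0.28 and -0.26 in control replicates 1 to 5. In ox-LDL replicates 1 to 5 it stood at -0.65, 1.80, -0.49, -0.65 and -0.34. Thus 4 of the ox-LDL libraries lay below every control and the remaining one above every control. All genes under 600 bases ran alongside, at -0.71, 1.52, -0.63, -0.73 and -0.57 in the ox-LDL libraries. Within the controls, replicates 1 and 4 were the highest pair for 66 of the 77 members.

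**Figure D1:**
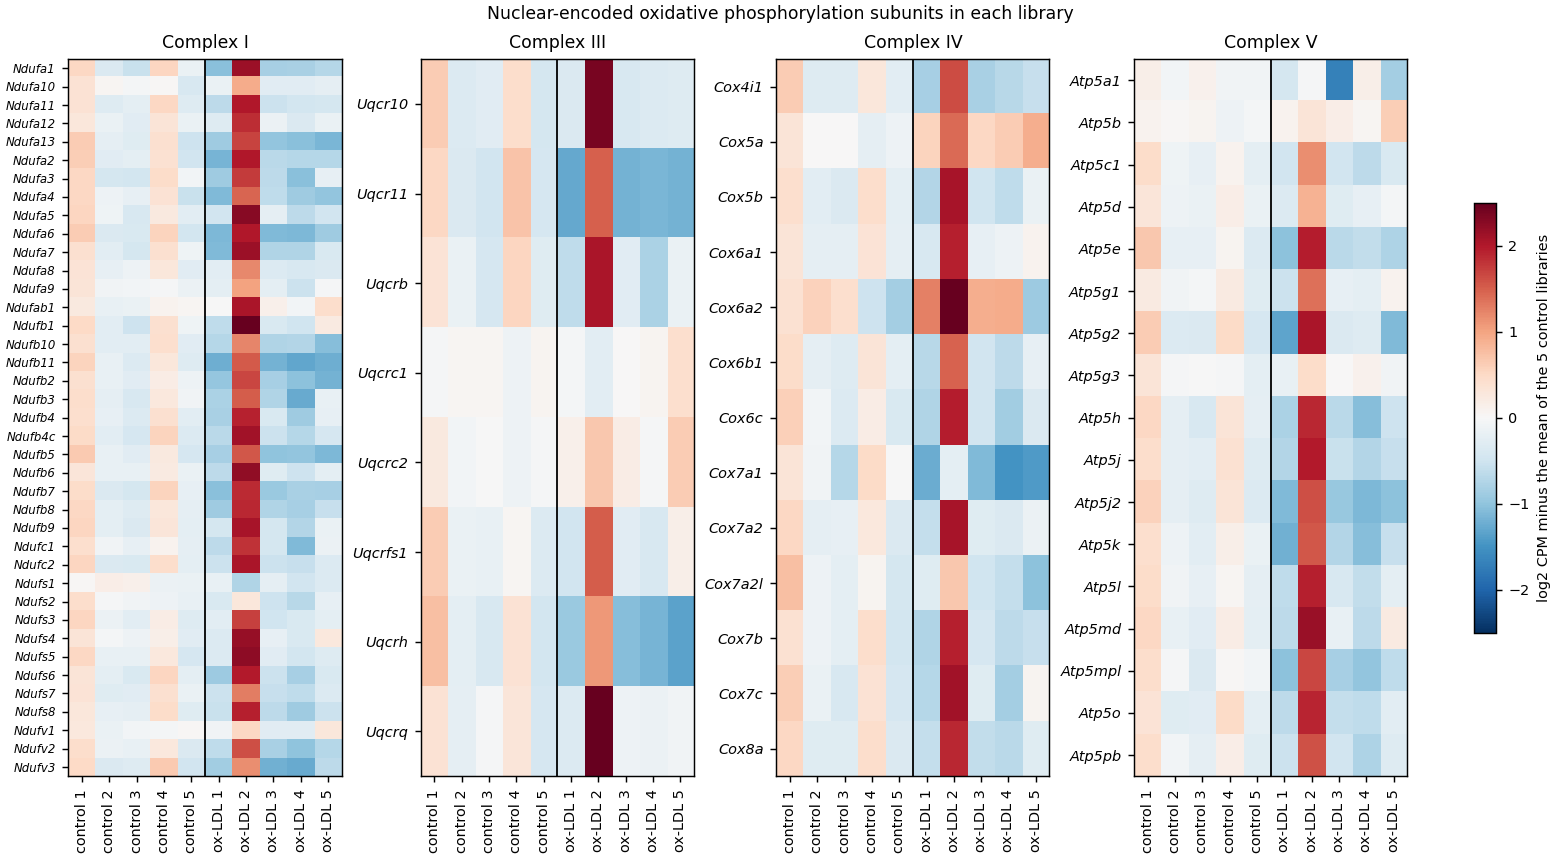
Heat map of the 77 tested subunit genes (rows, by complex) in the 10 libraries (columns); colour is log2 CPM minus the mean of the 5 control libraries, and values past the ends of the scale take its end colour. The column of ox-LDL replicate 2 is red for nearly all rows, while ox-LDL replicates 1, 3, 4 and 5 are mostly blue; Cox5a is red in all 5 ox-LDL libraries.

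Without ox-LDL replicate 2, the direction turned. Of 78 members tested (Ndufa4l2 now passed the filter), 71 had a negative fold change and 7 a positive one, and the median was -0.61 against 0.00 over 12973 genes. The same test called 20 members lower and 1 higher, 25.6% and 1.28% of them, where 11.6% of all genes were called lower and 13.5% higher. The 20 were 13 of 40 members of complex I, 2 of 8 of complex III, 1 of 13 of complex IV and 4 of 17 of complex V. The medians were -0.62, -0.40, -0.58 and -0.62 for complexes I, III, IV and V. Among the 77 members that passed the filter over 10 libraries, the 4 ox-LDL libraries lay wholly below the controls in 34 (21 of complex I, 2 of complex III, 2 of complex IV and 9 of complex V), and wholly above in 1 (Cox5a), where 16.6% and 18.6% of all genes did so. With all 10 libraries 1 of these 77 lay wholly below (Ndufs1) and 1 wholly above (Cox5a), against 9.11% and 11.6% of all genes. Ndufa4l2, which was below the filter over 10 libraries, also lay wholly above the controls, with and without replicate 2. It was the 1 member called higher without replicate 2, and it passed the filter there only through the ox-LDL libraries, where it was higher.

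Gene length moved with these lower levels. Among members under 600 bases, 15 of 45 (33.3%) were called lower without ox-LDL replicate 2, and among all genes of that length 173 of 553 (31.3%). Their medians were -0.71 and -0.79. Between 600 and 1000 bases, 4 of 17 members (23.5%) and 22.2% of all genes were called lower, with medians of -0.62 and -0.52. Over 1000 bases, 1 of 16 members (6.25%) and 9.73% of all genes were called lower, with medians of -0.31 and 0.07. Across the 78 members the fold change was higher in longer genes (Spearman's rho 0.46 across genes, which share the same libraries), whereas across the 77 members and 10 libraries rho was -0.12.

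**Figure D2:**
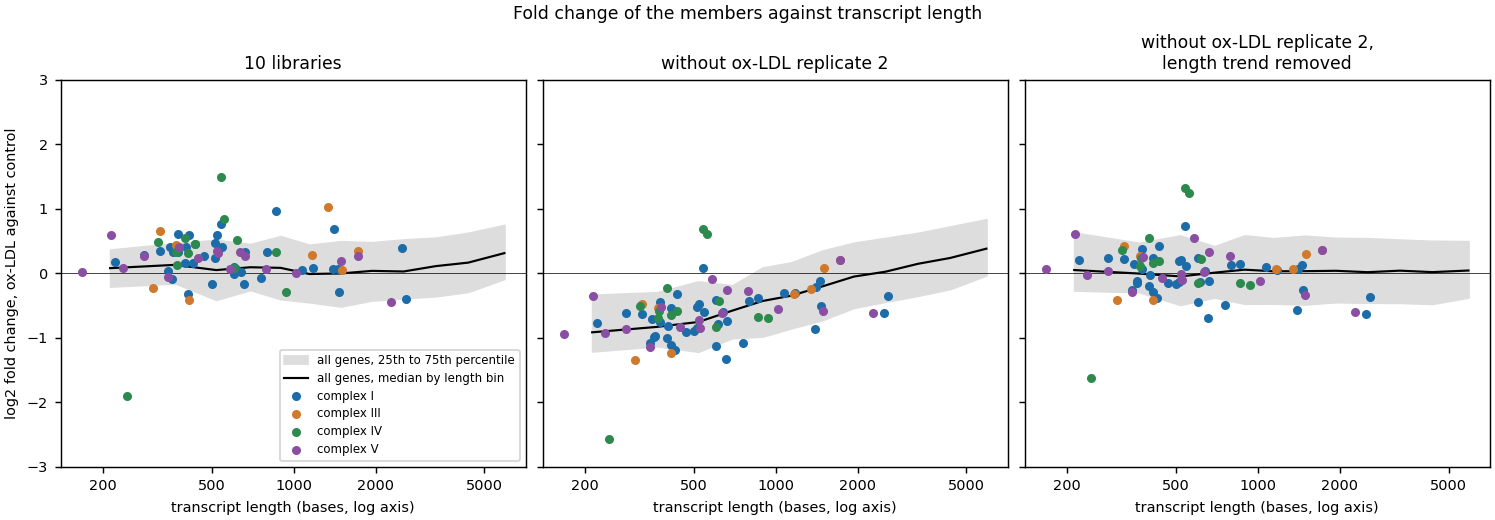
Log2 fold change of each tested member (points, coloured by complex) against transcript length (log axis), with the median (line) and the 25th to 75th percentile (grey) of all genes by length. The 77 members tested over 10 libraries are shown, so Ndufa4l2 is not. Without ox-LDL replicate 2 short genes lie lower, members and other genes alike, and with the length trend removed the members scatter about 0.

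When the length trend of each library was removed, the deviations from the controls were smaller. The median member stood between -0.04 and 0.03 in the 5 controls and between -0.02 and 0.26 in the 5 ox-LDL libraries. Complex IV was at 0.09, 0.26, 0.25, 0.08 and 0.29 in ox-LDL replicates 1 to 5, each above the controls (-0.06 to 0.04). On this scale all genes under 600 bases stood at 0.07, -0.14, 0.04, 0.02 and 0.04 in those libraries. Members under 600 bases stood at 0.02, 0.26, 0.19, -0.02 and 0.23. Complex I, at -0.09, 0.30, -0.02, -0.05 and 0.13, overlapped the controls (-0.04 to 0.03). Complex III reached 0.43 and 0.39 in ox-LDL replicates 2 and 5 and was at -0.02, 0.16 and 0.05 in replicates 1, 3 and 4, against -0.11 to 0.14 in the controls. Complex V was at -0.04 in replicate 1 and at 0.11 to 0.15 in the others, against -0.11 to 0.07. The edgeR test then called 4 members higher (Ndufab1, Uqcr10, Cox5a and Cox6a1) and 1 lower (Cox7a1), where 13.0% of all genes were higher and 9.68% lower. With ox-LDL replicate 2 also left out, it called 5 higher (Ndufa4l2, Ndufa12, Ndufab1, Cox5a and Cox6a1) and 3 lower (Ndufv2, Ndufb11 and Cox7a1), against 14.3% and 10.6% of all genes. The median of the members was then 0.06 and that of all genes 0.03.

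Leaving out ox-LDL replicate 2 together with control replicates 1 and 4, the other libraries in which short genes were high, was added after the data were seen. In that test 0 members were higher and 9 lower (Uqcrh, Uqcr11, Ndufa6, Ndufa13, Ndufb2, Ndufb5, Ndufb11, Atp5j2 and Atp5mpl), against 6.51% and 4.93% of all genes. At an unadjusted p below 0.05 there were 33 members. The share over all genes at that cutoff is not given here, so nothing is read from this number. The median fold change over all 78 members tested was -0.33.

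**Figure D3:**
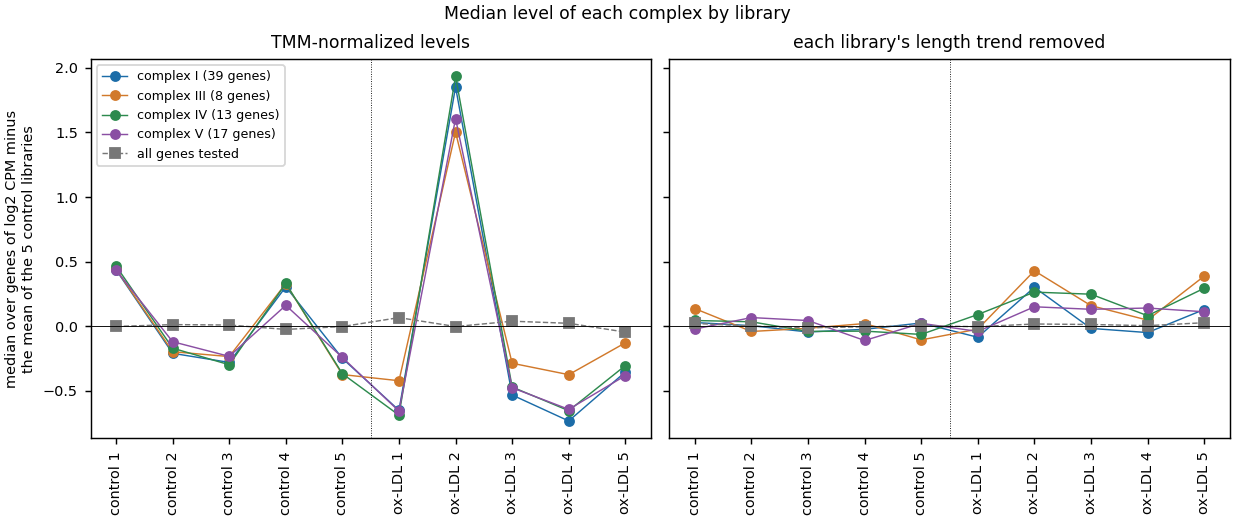
Median over the genes of each complex of log2 CPM minus the mean of the 5 control libraries, by library, with TMM-normalized levels (left) and with each library's length trend removed (right). At left, ox-LDL replicate 2 is at 1.5 to 1.93 for the 4 complexes and the other ox-LDL libraries lie below 0; at right, complex IV (green) lies above 0 in all 5 ox-LDL libraries.

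In complex I, 7 core subunits carry the flavin and the iron-sulphur clusters that receive electrons from NADH, and accessory subunits surround them. The other 34 genes matched by symbol are counted here as accessory. They include Ndufa4, now regarded as a subunit of complex IV, its relative Ndufa4l2, and Ndufb4b and Ndufb4c, relatives of Ndufb4. Without ox-LDL replicate 2 all 7 core subunits had negative fold changes (median -0.50, 2 called lower). So did 31 of 33 tested accessory genes (median -0.71, 11 called lower and 1 higher), where 11.6% of all genes were called lower. Ndufa4 was among the 11 called lower, and Ndufa4l2 was the 1 called higher. With the length trend removed as well the signs were mixed: 3 core subunits were positive and 4 negative (median -0.11, 1 called lower), and 18 accessory subunits were positive and 15 negative (median 0.06, 3 called higher and 1 lower).

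The core subunit Ndufs1 (2580 bases), which holds iron-sulphur clusters of the NADH-oxidizing arm, stood at 57.1, 62.1, 60.7, 49.9 and 49.4 CPM in control replicates 1 to 5. In ox-LDL replicates 1 to 5 it stood at 48.5, 32.9, 47.6, 40.0 and 43.7 CPM. It was lower in all 5 ox-LDL libraries than in any control, by a narrow margin, and it was lowest in ox-LDL replicate 2. Its log2 fold change was -0.39 (SE 0.16, adjusted p = 0.095 in edgeR's test), and it was negative but not called in all 23 fits tried. Ndufv2, another core subunit, was called lower without ox-LDL replicate 2 (-0.86, SE 0.19, adjusted p = 0.0044) and also with the length trend removed there (-0.58, SE 0.13, adjusted p = 0.0058). Over all 10 libraries its fold change was 0.07.

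The accessory subunit Ndufb11 (657 bases, chrX:20192452-20194745 in mm9, minus strand), whose promoter holds the YY1 letters shown above, sits in the membrane arm. It stood at 215, 128, 115, 178 and 117 CPM in control replicates 1 to 5, and at 62.5, 424, 64.1, 58.7 and 62.0 CPM in ox-LDL replicates 1 to 5. Thus 4 ox-LDL libraries were at little more than 60 CPM and 1 was above 400 CPM. Without that library its log2 fold change was -1.33 (SE 0.21, adjusted p = 5.9e-04), and with the length trend removed as well -0.69 (SE 0.11, adjusted p = 7.1e-04). Over all 10 libraries it was -0.17 (SE 0.56, adjusted p = 0.86). Rbm10 lies over Ndufb11 on the other strand. Whether reads were counted by strand is not given in the sources used here.

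Ndufab1 (540 bases) is the mitochondrial acyl carrier protein as well as a complex I subunit. It stood at 72.6, 54.0, 54.5, 65.0 and 63.6 CPM in the controls, and at 61.2, 253, 67.3, 58.8 and 83.3 CPM in the ox-LDL libraries. Apart from ox-LDL replicate 2 the groups overlapped. Its fold change was positive in all 23 fits (0.09 to 0.91) and was called only with the length trend removed (0.70, SE 0.14, adjusted p = 0.0026) and with replicate 2 also left out (0.73, SE 0.15, adjusted p = 0.0025). Another pair of accessory subunits lay at the ends of the range over 10 libraries: Ndufb1 at 0.96 (SE 0.63) and Ndufv3 at -0.32 (SE 0.47), neither of them called.

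In complex III the core proteins Uqcrc1 and Uqcrc2 and the Rieske iron-sulphur protein Uqcrfs1 differ in length from the small subunits, being 1166 to 1723 bases against 305 to 413 bases for 4 of the 5 small ones. Uqcrc1 stood at 88.6 to 101 CPM in the controls and at 80.5 to 130 CPM in the ox-LDL libraries, with ox-LDL replicate 2 the lowest of all. Its log2 fold change was 0.05 over 10 libraries (95% interval -0.28 to 0.38) and 0.08 without replicate 2 (-0.19 to 0.36). Uqcrc2 was at 0.34 and 0.21, again not called. Uqcrc1 was at 0.30 and Uqcrc2 at 0.36 with the length trend removed and replicate 2 left out, neither of them called.

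Uqcr11 (305 bases), a small subunit at the membrane, stood at 180, 97.8, 90.2, 207 and 93.9 CPM in the controls and at 51.0, 354, 54.9, 56.2 and 55.0 CPM in the ox-LDL libraries. Its 4 lower ox-LDL values were close together and below every control. Without ox-LDL replicate 2 it was called lower (-1.35, SE 0.27, adjusted p = 0.0025), and with the length trend removed as well it was at -0.42 (SE 0.13, adjusted p = 0.023). Uqcrh, the hinge protein, was likewise called lower without replicate 2 (-1.24, SE 0.26, adjusted p = 0.0031). Once the length trend was also removed it was at -0.42 (adjusted p = 0.042), not called, and over 10 libraries at -0.42 (adjusted p = 0.56). Uqcrq and Uqcr10, at the other end, had fold changes of 1.03 and 0.66 over 10 libraries and -0.25 and -0.48 without replicate 2. After the length trend was also removed they were at 0.07 and 0.42, not called.

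In complex IV the nuclear subunits surround a core encoded in mitochondrial DNA, and several exist as alternative isoforms made in different tissues. Cox5a (557 bases, chr9:57369039-57380231 in mm9, plus strand), a subunit on the matrix side, was the only tested member whose ox-LDL libraries all lay above the controls. It stood at 140, 112, 112, 94.8 and 101 CPM in control replicates 1 to 5 and at 163, 298, 160, 172 and 208 CPM in ox-LDL replicates 1 to 5. The lowest ox-LDL value exceeded the highest control value, with or without replicate 2. Its log2 fold change was 0.84 over 10 libraries (SE 0.22, adjusted p = 0.015), short of the 0.01 threshold, and it was positive in all 23 fits (0.60 to 1.24). It was called by DESeq2 (0.84, adjusted p = 0.0027), with the length trend removed (1.06, SE 0.26, adjusted p = 0.0071) and with replicate 2 left out as well (1.24, SE 0.17, adjusted p = 3.5e-04). Without replicate 2 alone it was 0.61 (SE 0.16, adjusted p = 0.0105), not called. In replicate 2 Cox5a was at 1.78 times the median of the other ox-LDL libraries, where the median over members was 5.65 times. It thus rose less there than most members, but the length correction treats it as a short gene. The larger fold changes with the length trend removed depend on that correction. Gm17596 overlaps Cox5a on the opposite strand.

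Cox6a1 (400 bases), the widely expressed form of subunit VIa, stood at 317, 215, 216, 321 and 214 CPM in the controls and at 190, 963, 219, 231 and 267 CPM in the ox-LDL libraries. The groups overlapped, and its fold changes were 0.54 over 10 libraries and -0.22 without replicate 2. With the length trend removed it was called higher (0.51, SE 0.13, adjusted p = 0.0090), and without replicate 2 as well (0.55, SE 0.12, adjusted p = 0.0042). Cox4i1, the regulatory subunit IV, was at 0.09 over 10 libraries and -0.83 without replicate 2 (adjusted p = 0.014), and with the length trend removed as well at -0.15.

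**Figure D4:**
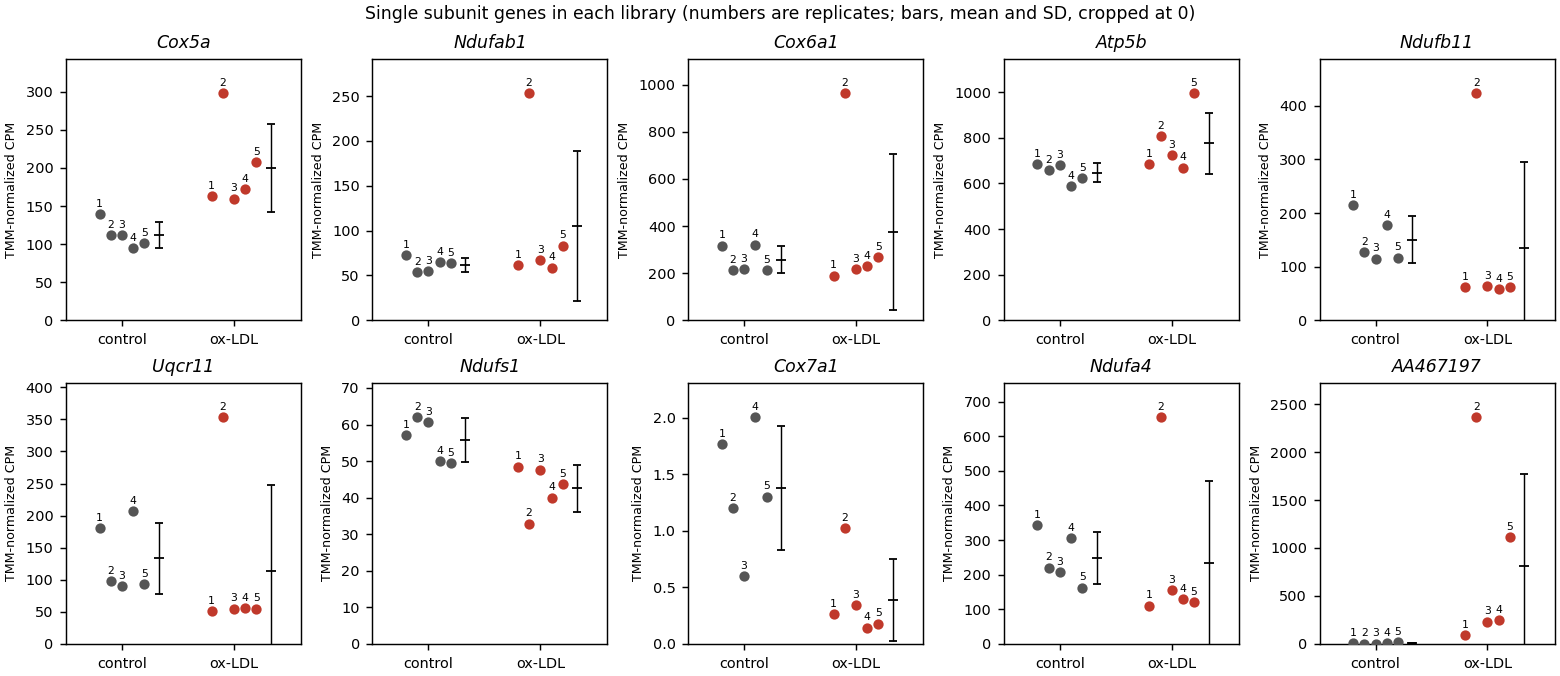
TMM-normalized CPM of 10 genes in each library (points, numbered by replicate), with the mean and SD of the 5 libraries of each group; all axes start at 0. Cox5a lies higher in all 5 ox-LDL libraries, Ndufs1 lower in all 5, and in Ndufb11, Uqcr11 and Ndufa4 the 4 ox-LDL libraries other than replicate 2 lie below every control.

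Alternative isoforms were a small part of their families. Cox7a1 (245 bases), the isoform of heart and skeletal muscle, stood at 1.77, 1.2, 0.60, 2.01 and 1.3 CPM in the controls (14 to 39 counts) and at 0.26, 1.03, 0.34, 0.14 and 0.18 CPM in the ox-LDL libraries (3 to 12 counts). Control replicate 3 lay below ox-LDL replicate 2, and otherwise the groups were apart. On the FPKM scale they did not overlap (2.78 to 7.87 in the controls and 0.49 to 2.45 in the ox-LDL libraries). Its log2 fold change was -1.90 (SE 0.54, adjusted p = 0.022) over 10 libraries and was negative in all 22 fits that tested it (-2.57 to -1.61). It was called lower in 6 of them, among them those without replicate 2 (-2.57, SE 0.47, adjusted p = 0.0013) and with the length trend removed (-1.77, SE 0.37, adjusted p = 0.0027). Cox7a1 passed the filter on low counts through the controls, where its counts were higher. The shared direction of the fits is therefore no independent support. By FPKM, Cox7a1 made 0.63% to 1.63% of the COX7A family in the controls and 0.14% to 0.35% in the ox-LDL libraries, and the rest was Cox7a2 and Cox7a2l. Cox7a2l, a factor of supercomplex assembly, was at -0.30 over 10 libraries and -0.69 without replicate 2, and with the length trend removed as well at -0.19, and it was called in none of these.

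Cox6a2, the muscle isoform of subunit VIa, stood at 4.0, 4.6, 4.1, 1.9 and 1.4 CPM in the controls and at 7.7, 24.6, 5.9, 6.0 and 1.3 CPM in the ox-LDL libraries, the last below all controls. Its log2 fold change of 1.5 (SE 0.61, adjusted p = 0.092) was the highest of the 77 tested members over 10 libraries and was called in no fit. Itgad overlaps Cox6a2 on the opposite strand, and whether reads were counted by strand is not given. Cox6a2 made 0.40% to 1.53% of the COX6A family in the controls and 0.34% to 2.93% in the ox-LDL libraries. Cox4i2, the isoform known for induction by low oxygen, Cox6b2 and Cox7b2, both known from testis, had at most 1, 8 and 1 counts in any library.

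Among the relatives of Ndufa4 the levels went in different directions. Ndufa4 (359 bases, chr6:11850373-11857446 in mm9, minus strand) stood at 343, 221, 208, 307 and 163 CPM in the controls and at 110, 656, 155, 130 and 121 CPM in the ox-LDL libraries. Without replicate 2 it was below every control and was called lower (-0.99, SE 0.23, adjusted p = 0.0058). With the length trend removed as well it was at -0.15 (adjusted p = 0.40), and over 10 libraries at -0.08.

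Its paralogue AA467197 (Nmes1, known in human as C15orf48), which is outside the rule and is known as an inflammation-induced substitute for Ndufa4, stood at 6.80, 3.08, 3.25, 7.31 and 16.7 CPM in the controls. In the ox-LDL libraries it stood at 95.5, 2368, 233, 251 and 1114 CPM, each far above every control. It was called higher in all 23 fits, with a log2 fold change of 6.77 over 10 libraries (SE 1.00, adjusted p = 5.2e-04) and 5.79 without replicate 2 (SE 0.81). On the FPKM scale AA467197 made 0.87% to 6.41% of the 3 relatives in the controls and 35.5% to 85.6% in the ox-LDL libraries. The third relative, Ndufa4l2, known as a target of the hypoxia factor HIF-1, had 0, 0, 2, 2 and 5 counts in the controls and 19, 8, 20, 21 and 20 counts in the ox-LDL libraries. Each ox-LDL library had more counts than any control, at about 1 CPM or less. It was below the filter over 10 libraries and was called higher in 8 of the 9 fits that tested it, with fitted log2 fold changes of 3.08 to 4.13 that depend on the prior count. Where a filter on low counts was used, Ndufa4l2 passed only through the ox-LDL libraries, where it was higher. The direction of these calls was therefore set by the filter and is no independent support. Shmt2 overlaps it on the opposite strand.

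**Figure D5:**
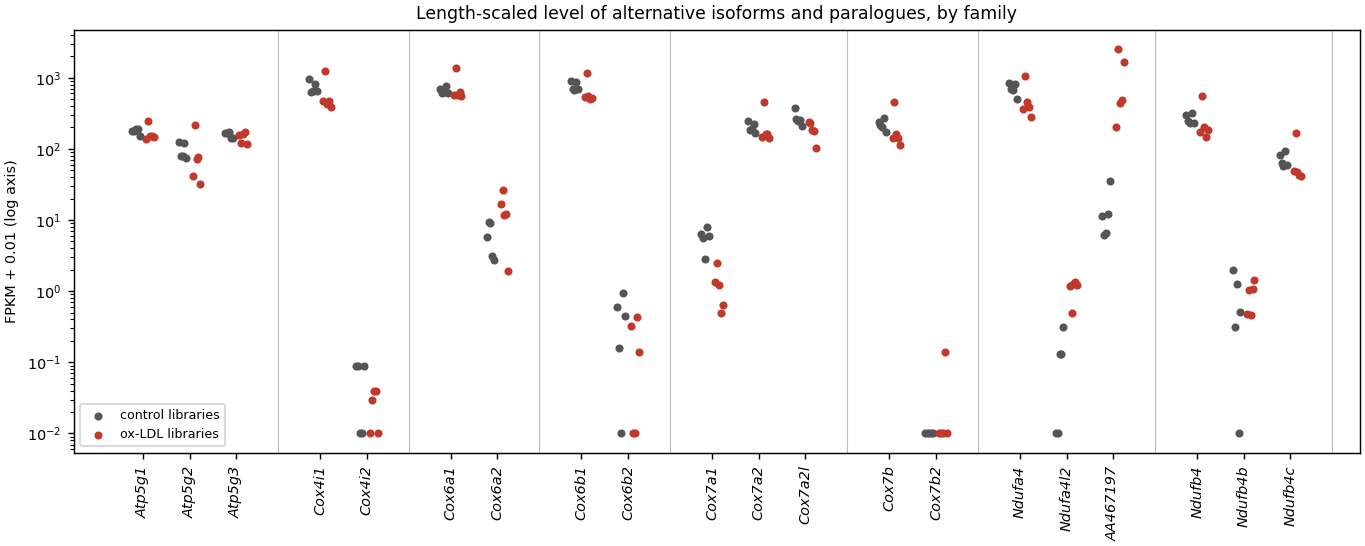
FPKM + 0.01 (log axis) of alternative isoforms and paralogues in each control (grey) and ox-LDL (red) library, grouped by family; points at 0.01 are libraries listed at 0. AA467197 lies above every control in all 5 ox-LDL libraries, and Cox7a1 below every control on this scale, which carries no TMM factor.

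In complex V the F1 head holds the catalytic sites, the c ring turns in the membrane and the peripheral stalk keeps the head from turning. The long catalytic subunit Atp5b (1719 bases) stood at 685, 659, 680, 588 and 622 CPM in the controls and at 683, 808, 725, 669 and 996 CPM in the ox-LDL libraries. The groups overlapped, with a fold change of 0.26 over 10 libraries (95% interval -0.14 to 0.66) and 0.21 without replicate 2 (-0.13 to 0.55). Atp5a1 stood at 24.6 to 29.1 CPM in the controls and at 19.2, 25.9, 7.9, 29.0 and 14.5 CPM in the ox-LDL libraries. Of these, replicates 1, 3 and 5 lay below the controls and replicates 2 and 4 among them (-0.45, SE 0.29, adjusted p = 0.28). The Atp5a1 values are uncertain, as its counts were not whole.

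The 4 members of the peripheral stalk had like values, at 0.19 to 0.34 over 10 libraries and -0.84 to -0.59 without replicate 2, none of them called. Removing the length trend as well put them at -0.34 to 0.03. Of the 5 small membrane subunits, 3 were called lower without replicate 2: Atp5j2 (-1.15, SE 0.22, adjusted p = 0.0019), Atp5mpl (-0.93, SE 0.18) and Atp5k (-0.94, SE 0.19). With the length trend removed as well these were at -0.29, -0.02 and 0.06, and none was called. Atp5md, at the other end of the complex, was at 0.60 over 10 libraries and -0.35 without replicate 2, and with the length trend removed as well at 0.61 (adjusted p = 0.015), not called.

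The c subunit is made from 3 genes that encode the same mature protein. By FPKM their shares in the controls were 37.6% to 42.7% for Atp5g1, 18.2% to 26.7% for Atp5g2 and 31.4% to 39.4% for Atp5g3. In ox-LDL replicate 2 they were 42.8%, 36.8% and 20.4%, and in the other ox-LDL libraries Atp5g2 made 10.9% to 18.8%. Their fold changes without replicate 2 were -0.26, -0.85 and -0.09, and with the length trend removed as well 0.33, -0.10 and 0.54, none of them called. These genes are alike in sequence, as are Ndufb4, Ndufb4b and Ndufb4c, so the counting could have split their reads, and their values are uncertain. The ATPase inhibitor Atpif1, which blocks reverse action of the synthase, stood at 387, 238, 185, 324 and 192 CPM in the controls and at 137, 646, 140, 109 and 106 CPM in the ox-LDL libraries. It was called lower without replicate 2 (-1.15, SE 0.25, adjusted p = 0.0034) and with the length trend removed as well (-0.83, SE 0.18, adjusted p = 0.0043), and over 10 libraries it was at -0.22.

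The other genes of the pathway are given from lists. The 4 subunits of complex II had fold changes of -0.48 to 0.22 over 10 libraries and 0 were called. Without replicate 2, Sdhc, a membrane anchor, was called lower (-0.72, SE 0.15, adjusted p = 0.0028), and with the length trend removed as well it was at -0.30 (adjusted p = 0.087), not called. Cytochrome c, the carrier between complexes III and IV (Cycs), stood at 48.4, 42.2, 39.1, 67.1 and 34.1 CPM in the controls and at 49.6, 310, 68.4, 49.1 and 105 CPM in the ox-LDL libraries. Its fold change was positive in all 23 fits (0.52 to 1.53) and was called with the length trend removed (1.24, SE 0.19, adjusted p = 4.9e-04) and with replicate 2 left out as well (1.25, SE 0.21, adjusted p = 8.3e-04). Cyc1, a heme-bearing subunit of complex III, stood at 56.2 to 64.3 CPM in the controls and at 71.4 to 112 CPM in the ox-LDL libraries. Its fold change was positive in all 23 fits. It was called only with the length trend removed and replicate 2 left out (0.76, SE 0.15, adjusted p = 0.0027).

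Among assembly factors, 0 of 15 for complex I and 0 of 6 for complex III were called over 10 libraries. The shares over all genes were 9.40% higher and 5.35% lower. For complex IV, 1 of 22 tested was called: Coa5 stood at 86.1 to 107 CPM in the controls and at 143 to 226 CPM in the ox-LDL libraries, with no overlap (0.87, SE 0.18, adjusted p = 0.0035). For complex V, Atpaf1, a chaperone of the F1 beta subunit, was the only one of 4 called, at 11.8 to 20.6 CPM and 6.57 to 11.3 CPM (-0.93, SE 0.21, adjusted p = 0.0073). Coa5 was called in 15 of 23 fits and Atpaf1 in 12 of 23, for both among them the fits without replicate 2 and with the length trend removed. Without replicate 2 the counts called lower were 3 of 15, 0 of 6, 4 of 22 and 2 of 4 for complexes I, III, IV and V, and 1 of 22 (Coa5) was higher, where 11.6% of all genes were called lower and 13.5% higher. With the length trend removed as well, 0 of 15, 0 of 6, 2 of 22 and 1 of 4 were called lower. The share called lower over all genes was then 10.6%. Factors called higher in that fit are not counted here.

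Of the 15 regulators of mitochondrial biogenesis tested, 2 were called higher and 0 lower over 10 libraries, where 9.40% of all genes were called higher. Gabpb1, the partner of the ETS factor GABPA, stood at 11.9 to 15.6 CPM in the controls and at 26.2 to 53.2 CPM in the ox-LDL libraries (1.47, SE 0.23, adjusted p = 7.4e-04). Nrip1, a corepressor known to restrain oxidative genes, stood at 4.15 to 7.96 and 9.59 to 17.4 CPM (1.05, SE 0.24, adjusted p = 0.0067). Neither gene's groups overlapped, and both were also called without replicate 2. Over all fits Gabpb1 was called in 22 of 23 and Nrip1 in 11 of 23. Gabpa itself was at -0.12 and Nrf1 at 0.72 (SE 0.26, adjusted p = 0.057). Ppargc1a, a coactivator of respiratory genes, was near 1 CPM in both groups (0.43 to 2.06 in the ox-LDL libraries). Any link between these regulators and the members was not tested.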

How the data were processed

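RNA-seq libraries, 5 control and 5 ox-LDL, were used, grouped by their sample labels. Per the labels' processing notes, the submitters checked reads with FastQC, aligned them to mm9 with HISAT2 (version 2.0.5), sorted them with SAMtools (version 1.4) and assembled them with StringTie (version 1.3.3.13). The authors deposited estimated counts per gene, not normalized, of which 13.6% were not whole; the counting step and its use of strand are not given in the sources used here. They also deposited 1 value per gene and library with no unit named. Dividing counts by it and by the library total gave a near-constant length per gene (median coefficient of variation 2.80%), so these deposited values were taken as FPKM, and that length was used.

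Counts were rounded, 9788 circular RNA rows left out, genes filtered with filterByExpr, scaled by TMM factors and fitted with the robust quasi-likelihood test of edgeR (version 4.0.16) in R 4.3.3, with Benjamini-Hochberg adjustment over all genes tested. Calls had an adjusted p below 0.01. CPM are TMM-normalized. The biological coefficient of variation was 37.3%. The length trend was a lowess curve of each library's deviations on log2 length, used as an offset. DESeq2 (version 1.42.0), limma-voom (limma 3.58.1), limma on log2(FPKM + 1), other normalizations and filters, the replicate number as a block and each library left out were alternatives. The procedures were tested on simulated data. Coordinates are those of GENCODE for mm9; names and promoters came from RefSeq tables of GRCm38.p6. Of 75 members with 1 mm9 gene, 24 overlapped another gene, 19 of them on the opposite strand.

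Members and lists were chosen with earlier results of these data known. Named were members at the ends of each complex's fold changes, alternative isoforms, the most abundant members, those called only without ox-LDL replicate 2 (the 10 with the smallest p) and called genes of the related lists. Genes named outside this rule, such as Ndufv2, Ndufa12, Atp5b, Uqcrc1, Uqcrc2, Cycs and Cyc1, were chosen after their values were seen.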

Additional observations from a re-analysis of the deposited data

Results flagged for a closer look

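In 34 of 86 groups of 5 libraries examined, a single library was separated from the nearest other by more than 0.71 of the group's whole range, which is Dixon's 95% limit. Chance alone would give about 1 in 20, or 4.3 groups, if the groups were independent. They were not, because the genes share the same libraries. Some genes were also named because they were called only without ox-LDL replicate 2. The number of groups is therefore a description and no test against chance. In 33 of them the library was ox-LDL replicate 2, as the highest. The share of the range taken by its gap was as follows. For complex I genes it was Ndufa4 (0.919), Ndufab1 (0.874), Ndufb1 (0.914), Ndufb11 (0.985), Ndufb2 (0.956), Ndufb5 (0.958) and Ndufv3 (0.882). For complex III genes it was Uqcr10 (0.989), Uqcr11 (0.983), Uqcrb (0.911), Uqcrh (0.923) and Uqcrq (0.975). For complex IV genes it was Cox4i1 (0.958), Cox6a1 (0.9), Cox6a2 (0.726), Cox6b1 (0.887), Cox7a1 (0.776), Cox7a2 (0.931), Cox7b (0.951) and Cox8a (0.941). For complex V genes and the inhibitor it was Atp5g1 (0.807), Atp5g2 (0.894), Atp5j2 (0.976), Atp5k (0.906), Atp5l (0.938), Atp5md (0.858), Atp5mpl (0.945) and Atpif1 (0.938). For the medians of log2 deviation it was 0.874 over all members, 0.853 for complex I, 0.848 for complex III, 0.854 for complex IV and 0.879 for complex V. The remaining group was Atpaf1 in the ox-LDL libraries, where replicate 1 was the highest (0.721). Short genes as a whole were high in ox-LDL replicate 2, and the cause was not tested.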

How the results depend on the processing

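Over 10 libraries 0 members were called in each direction. Those called higher were 1 by DESeq2 (which gave no p for 31 of the 77 members), 1 with no filter on low counts, 4 with the length trend removed, 5 with that and without ox-LDL replicate 2, 1 at an adjusted p below 0.05, and 0 to 1 with each library left out. Those called lower were 1 by DESeq2, 1 with library size alone, 1 by limma on log2(FPKM + 1), 1 with the length trend removed, 3 with that and without ox-LDL replicate 2, 9 without the 3 libraries in which short genes were high, 1 at an adjusted p below 0.05, and 0 to 20 with each library left out, the 20 without ox-LDL replicate 2. Over all genes, 1866 were called, and 3009 by DESeq2, 2872 with the length trend removed, 3240 with that and without ox-LDL replicate 2, 3365 at an adjusted p below 0.05 and 1262 to 3257 with each library left out. Their split was 1189 higher and 677 lower, but 555 and 750 by limma on log2(FPKM + 1), 704 and 583 with library size alone, and 1755 and 1502 without ox-LDL replicate 2.

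With each library left out, the median log2 fold change ranged from -0.61 to 0.43 over members, -0.62 to 0.43 in complex I, -0.40 to 0.44 in complex III, -0.58 to 0.54 in complex IV and -0.62 to 0.36 in complex V, the lowest each time without ox-LDL replicate 2. The median over members was also negative with library size alone (-0.13, all genes -0.09), limma-voom (-0.07) and limma on log2(FPKM + 1) (-0.29, all genes -0.14). With the replicate block it was negative too, as given below. Among the 38 values examined, fold changes turned to called negative values without ox-LDL replicate 2 in Atp5k, Atp5mpl and Ndufb2. With each library left out these ranged over -0.94 to 0.21, -0.93 to 0.27 and -1.08 to 0.27. Without the 3 libraries Atp5mpl (-0.76) and Ndufb2 (-0.86) turned likewise. Other members did so too, such as Ndufa6 (0.16 over 10 libraries, -1.19 without replicate 2 and -0.71 without the 3 libraries). The cause was not tested. AA467197 was called in every fit. Of 38 values examined, restricting genes to those with a symbol moved 0 and took 0 across the threshold, and removing the length trend moved 4 and took 5 past it.

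Libraries of the 2 groups share replicate numbers, but deviations of same-numbered libraries correlated at -0.01, -0.37, 0.49, -0.35 and 0.42, and 3 of 10 libraries correlated best with their own number, so the numbers were not taken as pairs. With the replicate block, 0 members were called, their median was -0.14, and 885 genes were higher and 549 lower. Depth was nearly even, and it limited only isoforms with a handful of counts.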
